A study of Mus musculus with 2 samples.

Results

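The genes described here make cholesterol or control its synthesis: 8 genes, picked by symbol, of the 23284 in the series' table, and all 8 were found in it. They are Hmgcs1, Idi1, Fdft1, Sqle, Lss and Cyp51, which encode enzymes of the pathway, and Insig1 and Srebf2, which encode its regulators. RNA was sequenced from macrophages of the infarcted heart of C57BL/6 mice, collected on day 3 after a coronary artery, the left anterior descending, had been ligated. Macrophages high in the surface antigen Ly6C gave 1 library (Ly6Chi) and macrophages low in it gave the other (Ly6Clo), so both populations share strain, surgery and day. The labels state no age, sex or number of animals for either library.

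The values are a signed statistic per gene that compares the 2 libraries, and the gene's rank by the size of that statistic. The table does not say which population a positive value belongs to, so each gene is placed on the positive or the negative side and neither side is given to Ly6Chi or Ly6Clo cells. As a landmark, Ly6c2, which encodes a Ly6C antigen, had a statistic of -1.78 in the authors' deposited table. No unit or formula for the statistic is stated in these sources, so it is not read as a fold change, and a value near 0 does not show equal expression. With 1 library per population there is no spread between replicates, no error and no test, and the read depth behind each value was not analysed here. In bulk RNA of this kind, fewer cells of a type and less RNA per cell cannot be told apart.

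Cells make cholesterol from acetyl-CoA by way of mevalonate, farnesyl diphosphate, squalene and lanosterol. SREBP2, the product of Srebf2, is held in the endoplasmic reticulum by Insig proteins while sterols are plentiful. When sterols fall, its escort Scap carries it to the Golgi, where proteases release the part that enters the nucleus and switches on the enzymes of the pathway. SREBPs bind a sterol regulatory element and usually act beside NF-Y, which binds the CCAAT box, or Sp1, which binds GC boxes. Oxysterols and other late sterols act the opposite way through the nuclear receptors LXR, which turn on genes that export cholesterol. Macrophages that have eaten dead cells take up much cholesterol and must store or export it.

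Stretches of the promoters are shown because the genes that had a promoter window shared the boxes of factors that act with SREBP2. The genes were picked as cholesterol synthesis and SREBP2 target genes, so these boxes are not independent of that choice. RefSeq promoter windows on GRCm38.p6 were given for 6 of the 8 genes, Fdft1 and Sqle being the others. All 6 held at least 1 CCAAT and at least 1 GGGCGG within 250 bases before the start site, searched on both strands. Across all 32851 mouse promoter windows of that length, 33.8% held CCAAT, 32.7% held GGGCGG and 11.0% held both. The 6 windows were not matched to the others for base composition: G and C made up 51.2% of the Idi1 window and from 62.8% (Cyp51) to 73.6% (Lss) of the other 5, against a median of 52.4% over all windows. The part of base composition in the GGGCGG matches was not tested. The CCAAT box nearest to each start site on its upstream side is in capitals below, read on the gene's strand, on which the box can appear as ATTGG. Each stretch lies upstream of the gene as RefSeq annotates it.
Hmgcs1, chr13:119690294-119690322, plus strand: tccccgcctctcATTGGctgaaagcggat
Idi1, chr13:8885580-8885605, plus strand: gtccaaggtgccATTGGctggcgacc
Lss, chr10:76531531-76531559, plus strand: ggtgatgctctgATTGGccgagctcgcat
Cyp51, chr5:4104710-4104738, minus strand: cgctgtccgccaCCAATctggtcctgaga
Insig1, chr5:28071184-28071212, plus strand: cgccctcctcccATTGGctccggcggcct
Srebf2, chr15:82147122-82147150, plus strand: cttcgcgcgccgATTGGctaatgcaagcc

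The sterol regulatory element itself was matched in fewer of the 6 windows. Its longer form, TCACNCCAC, was found in the Hmgcs1 window and in no other of the 6, and in 1.05% of all windows. The shorter form CACNCCAC, which lies inside the longer one, was also found in the Insig1 window, and 5.29% of all windows held it. A form without the last base, TCACNCCA, was searched after the Srebf2 window had been seen. It matched in Srebf2 and Hmgcs1 and in 3.67% of all windows. The E-box CACGTG was found in the Insig1 window alone, and in 6.02% of all windows. These stretches are shown because they hold the matches, which are in capitals. A match describes letters and is not a measured binding site.
Hmgcs1, chr13:119690204-119690232, plus strand: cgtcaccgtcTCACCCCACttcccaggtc
Srebf2, chr15:82147097-82147124, plus strand: tgacgcaccaTCACCCCAtgagccgctt
Insig1, chr5:28071301-28071326, plus strand: tgggtgaggtCACGTGgctccggtgg

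**Figure D1:**
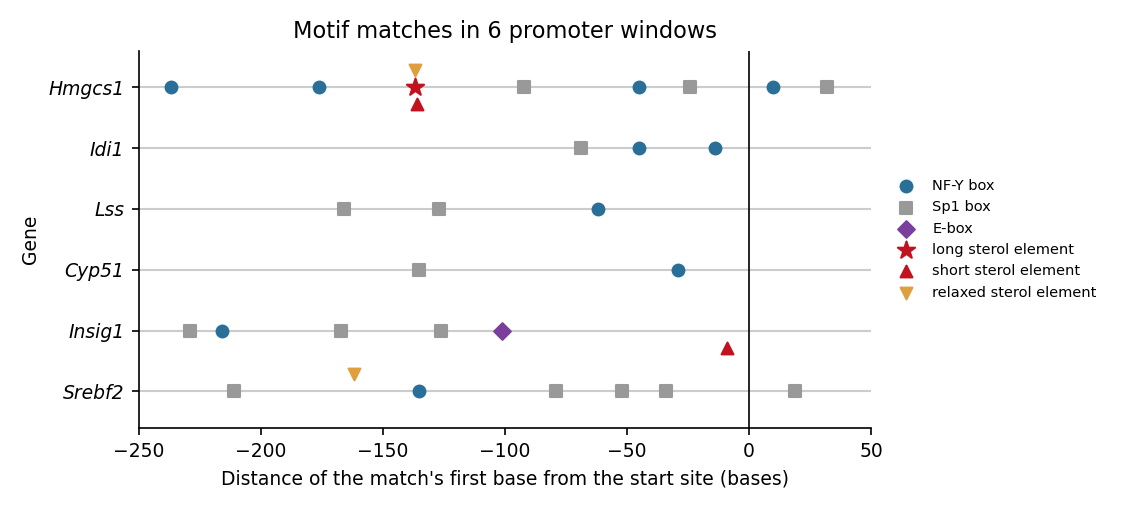
Matches in the promoter windows of 6 genes, by the distance in bases of each match's first base from the start site at 0. Each symbol is 1 match on either strand, drawn from 250 bases before to 50 after the start. All 6 genes have an NF-Y box (circle) and an Sp1 box (square) before the start, while the long sterol element (star) is present in Hmgcs1 only.

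Of the 8 genes, 7 lay on the positive side and Fdft1 on the negative side. Among the 16302 genes with a statistic other than 0, 57.7% were positive. The values lay in 2 ranges, with Idi1, Srebf2, Lss and Cyp51 between 0.25 and 0.58 and Hmgcs1, Sqle, Insig1 and Fdft1 between -0.02 and 0.03 in the authors' deposited table. The median of the 8 was 0.14, against 0.005 over all genes other than 0. It moved to 0.033 when any of the 4 larger values was left out and to 0.25 when any of the 4 smaller ones was. Only Idi1 reached 0.5, a value that 5.39% of genes other than 0 reached on the positive side and 1.41% on the negative side. At 0.25 or higher there were 4 of the 8, against 14.1% of genes other than 0. At -0.25 or lower there were 0 of 8, against 6.66% of genes other than 0.

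**Figure D2:**
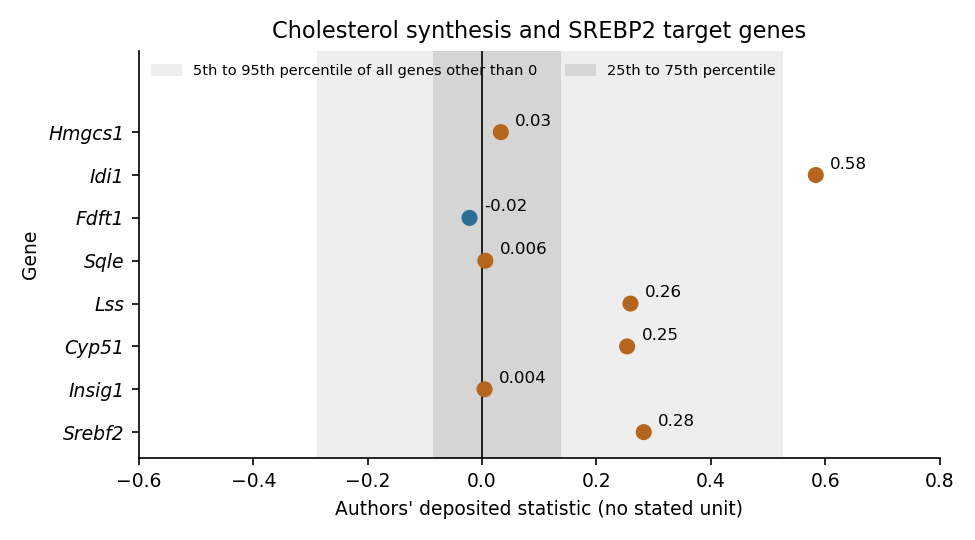
The deposited statistic of each of the 8 genes, in the order of the pathway with the regulators last. Shading marks the 5th to 95th and the 25th to 75th percentiles of all genes with a value other than 0. Idi1 at 0.58 is the only point outside the wider band, and 4 genes sit close to 0.

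The early enzymes differed from each other. Hmgcs1 encodes the cytosolic synthase that makes HMG-CoA, which is then reduced to mevalonate, and lies on chromosome 13 from 119690351 to 119708260. Its statistic was 0.03 and its rank 12830 in the authors' deposited table, and 78.7% of genes other than 0 had a value at least as large in size. Idi1 encodes the isomerase that turns isopentenyl diphosphate into dimethylallyl diphosphate, and lies on the same chromosome from 8885606 to 8892396. Its statistic was 0.58 and its rank 814 in the authors' deposited table, the largest value of the 8 genes. Of genes other than 0, 4.99% had a value at least as large in size. In the GENCODE annotation, Gm48342 shares 6190 bases with Hmgcs1 and Gm48574 shares 323 bases with Idi1, each on the opposite strand. Neither symbol was listed in the authors' deposited table. The gene whose window held the long sterol element was near 0, and the gene with the largest statistic had no match to any of the sterol forms in its window. Among the other windows, Srebf2 and Insig1 held another sterol form and Lss and Cyp51 held none. Whether the matches go with the values was not tested.

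The enzymes that form squalene and its epoxide were close to 0. Fdft1 encodes squalene synthase, the first enzyme of the sterol branch, and lies on chromosome 14 from 63145150 to 63181687. It had -0.02 in the authors' deposited table, and 86.2% of genes other than 0 were at least as large in size. In the GENCODE annotation Fdft1 shares 774 bases with Ctsb on the opposite strand, and that cathepsin gene had -0.99 in the authors' deposited table. No source used here says whether the counting separated the strands, and the part of Ctsb reads in the value of Fdft1 was not tested. Sqle encodes squalene epoxidase, the oxygen-requiring enzyme that follows, and lies on chromosome 15 from 59315092 to 59331193. It had 0.006 in the authors' deposited table, and it overlapped no other annotated gene. With the zero point moved to the median of genes other than 0 its value was 0.00065.

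The next pair of enzymes had larger values. Lss encodes lanosterol synthase, which folds squalene epoxide into the first sterol ring system, and lies on chromosome 10 from 76531565 to 76557139. Its statistic was 0.26 and its rank 3189 in the authors' deposited table. Cyp51 encodes the cytochrome P450 that demethylates lanosterol and lies on chromosome 5 from 4080674 to 4104697. Its statistic was 0.25 and its rank 3308 in the authors' deposited table. These neighbouring steps therefore had nearly the same value, and 19.6% and 20.3% of genes other than 0 were at least as large in size. The antisense gene that overlaps Lss, 4930483K19Rik, stood at 2.42e-06 and Akap9, which shares 166 bases with Cyp51 on the opposite strand, at 0.0005 in the authors' deposited table.

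The regulators also parted. Srebf2 lies on chromosome 15 from 82147269 to 82205379. In the authors' deposited table its statistic was 0.28 and its rank 2810, a size that 17.2% of genes other than 0 reached. The microRNA gene Mir33 lies within Srebf2 and was listed at 0 in the authors' deposited table. Gm49502, which shares 2110 bases with Srebf2 on the same strand, was not listed there under that symbol. Insig1, on chromosome 5 from 28071412 to 28078662, encodes the anchor that retains SREBPs and is itself a target of SREBP2. It had 0.004 in the authors' deposited table, the smallest size of the 8 genes, and 92.0% of genes other than 0 were at least as large. Its side turned with a shift of the zero point to the median of genes other than 0, which gave -0.00078.

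Further enzymes of sterol synthesis were looked up as a list, of which 14 genes are reported here. Their median was 0.09, with 10 positive values and 4 negative ones, where 57.7% of genes other than 0 were positive. None of the 14 reached 0.5 in size, where 5.39% of genes other than 0 reached 0.5 and 1.41% reached -0.5. On the positive side 3 reached 0.25, against 14.1% of genes other than 0. None reached -0.25, against 6.66%. These counts are fairly near those shares. Lbr, which encodes a lamin receptor that also reduces sterols, had 0.496, just under the threshold, with rank 1120 in the authors' deposited table. Pmvk, a kinase of the mevalonate steps, had 0.32 and Dhcr7, the reductase that makes cholesterol from dehydrocholesterol, had 0.27 in the authors' deposited table. Mvd, which encodes the decarboxylase that makes isopentenyl diphosphate, had 0.20 in the authors' deposited table. On the negative side Msmo1, a sterol methyl oxidase listed under its older symbol Sc4mol, had -0.12 and Ggps1, a prenyl transferase outside the sterol branch, had -0.11 in the authors' deposited table. Nsdhl, a sterol dehydrogenase, and Ebp, a sterol isomerase, had -0.02 each in the authors' deposited table.

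Placed in pathway order, the enzymes reported here number 19, with 15 positive values and a median of 0.13. Among genes other than 0, 57.7% were positive. Idi1 was the largest of them and the only value at 0.5 or more, which 5.39% of genes other than 0 reached. The values did not run evenly along the pathway. Idi1 at 0.58 stood between Mvd at 0.20 and Fdps at 0.17 in the authors' deposited table. Tm7sf2 and Lbr, which serve the same step, had 0.16 and 0.496 in the authors' deposited table, and Msmo1 after them had -0.12. Lss and Cyp51 followed directly on Fdft1 and Sqle, whose values were -0.02 and 0.006 in the authors' deposited table.

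**Figure D3:**
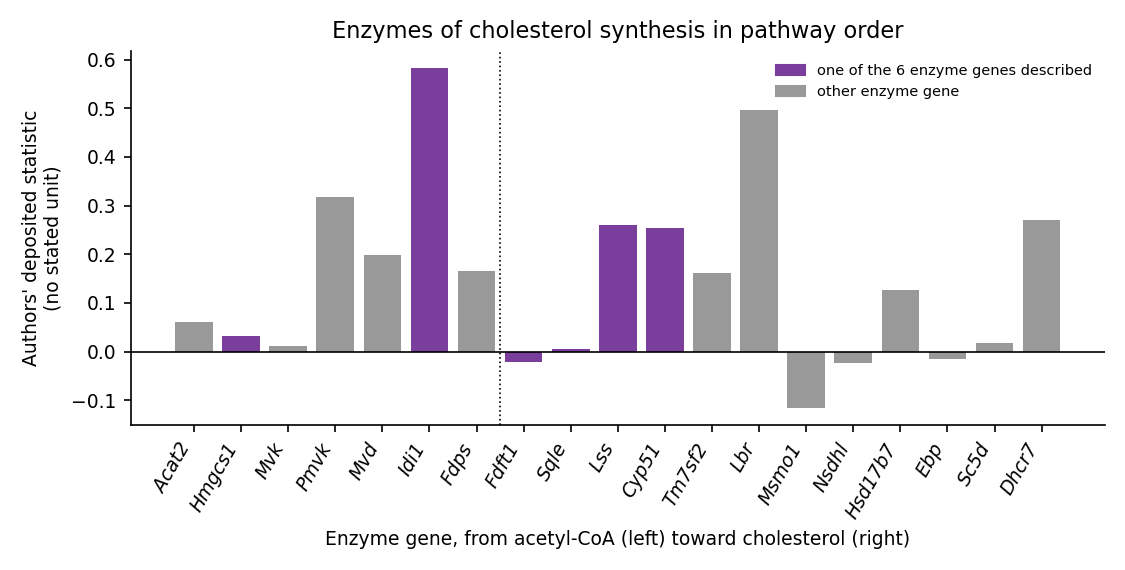
The deposited statistic of 19 enzyme genes in the order of their reactions, as bars from 0. Tm7sf2 and Lbr, drawn side by side, serve the same step. Purple bars are the 6 enzyme genes described here and the dotted line marks farnesyl diphosphate. Idi1 at 0.58 and Lbr at 0.496 are the tallest bars and Msmo1 at -0.12 is the lowest.

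The genes that handle SREBPs and further genes under sterol control lay on both sides. Of the 8 reported here, 3 had positive and 5 had negative values, around a median of -0.04, where 42.3% of all genes other than 0 were negative. Npc1 alone reached -0.5, as did 1.41% of genes other than 0. Npc1 and Npc2, which pass cholesterol out of the lysosome, had -0.61 and -0.46 in the authors' deposited table. Insig2, the paralog of Insig1, had -0.21 in the authors' deposited table. Stard4, a sterol carrier that is also a target of SREBP2, stood on the other side at 0.39 in the authors' deposited table. The proteases that cut SREBPs, encoded by Mbtps1 and Mbtps2, had 0.09 and -0.07, and Scap had 0.02 in the authors' deposited table.

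Fatty acid synthesis genes, which SREBP1 controls, lay mainly on the positive side. The list held 10 genes, of which 9 had positive values, against 57.7% of genes other than 0. Their median was 0.20, and 4 reached 0.5, against 5.39% of genes other than 0. The desaturase genes Scd1, Fads2 and Fads1 stood at 0.89, 0.78 and 0.60, and Fasn, which encodes the fatty acid synthase, at 0.53 in the authors' deposited table. Me1, which encodes malic enzyme, was the negative member at -0.09 in the authors' deposited table. In the authors' deposited table Srebf1, the gene of SREBP1 itself, was at -0.004.

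Genes of sterol efflux, storage and LXR signalling lay mostly on the negative side. The list held 11 genes, of which 9 had negative values, against 42.3% of genes other than 0. Their median was -0.41, and 4 reached -0.5, against 1.41% of genes other than 0. Nceh1 and Soat1, which hydrolyse and form cholesteryl esters, had -0.63 and -0.56 in the authors' deposited table. Abca1, which exports cholesterol to apolipoproteins, had -0.62 and Apoe, which encodes an apolipoprotein that macrophages secrete, had -0.54 in the authors' deposited table. Ch25h and Cyp27a1, whose products make oxysterols, were the exceptions at 0.66 and 0.36 in the authors' deposited table. The difference between this list and the 8 genes was not tested, since a single comparison gives no spread for it.

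**Figure D4:**
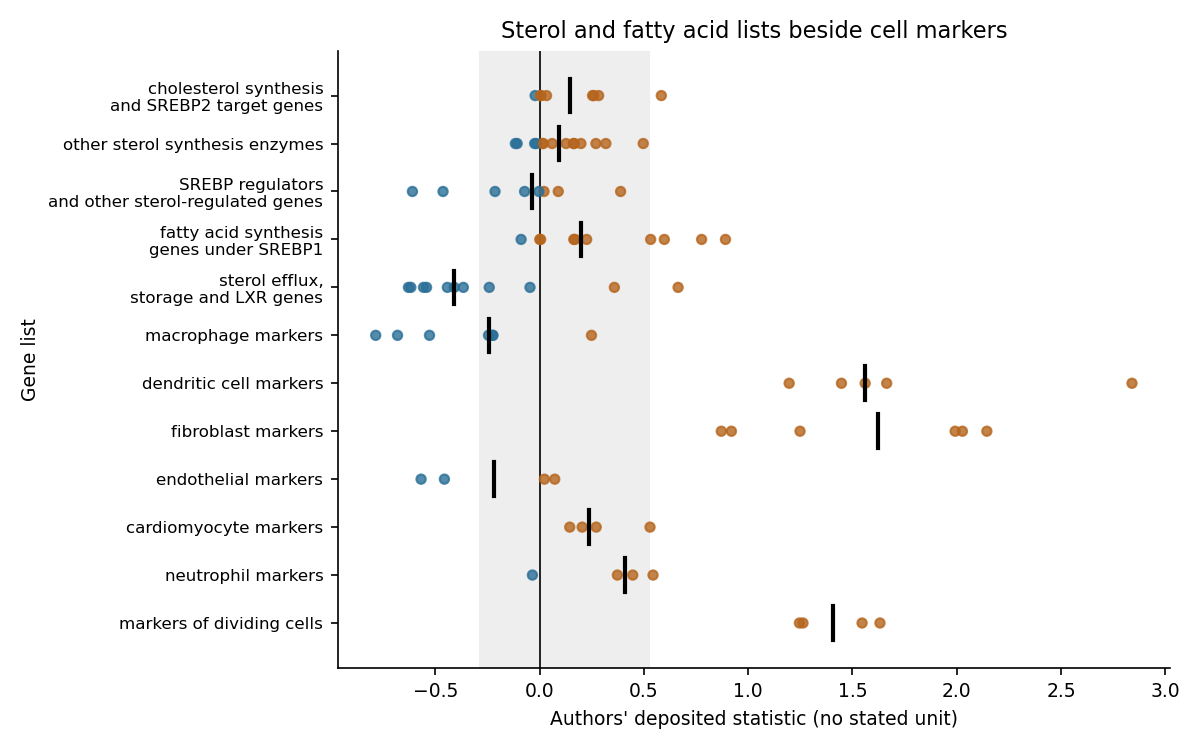
The deposited statistic of the genes reported in 5 lipid lists and 7 lists of cell markers. Each point is a gene, orange when positive and blue when negative, the black bar is the list's median, and shading spans the 5th to 95th percentile of all genes other than 0. The 8 genes have a median of 0.14, while the efflux list is at -0.41 and the dendritic cell, fibroblast and dividing cell markers are at 1.40 or higher.

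Markers of dendritic cells, fibroblasts and dividing cells stood on the positive side, each with a larger value than any of the 8 genes. All 5 dendritic cell genes lay between 1.20 and 2.84, all 6 fibroblast genes between 0.87 and 2.14 and all 4 genes of dividing cells between 1.25 and 1.63 in the authors' deposited table. All 4 cardiomyocyte genes were positive as well, with a median of 0.24, as were 3 of 4 neutrophil genes, with a median of 0.41. Among genes other than 0, 57.7% were positive and 42.3% negative, and 3 of 4 is fairly near the first share. The median of 7 macrophage genes was -0.25, and Csf1r at 0.25 in the authors' deposited table was the only positive value among them. The 4 endothelial genes divided evenly by side around a median of -0.22. The part of these cells in the values of the cholesterol genes was not tested.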

How the data were processed

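RNA from 1 Ly6Chi and 1 Ly6Clo library was compared. The submitters' processing notes name CASAVA 1.8.2, TopHat and the mouse build mm10, and no source used here names the counter, its strand setting or the annotation. The table that the authors deposited holds, per the file headers, a signed score per gene (the statistic) and its rank. Ranks recomputed from the size of the score equalled the deposited ones within 1e-06 for all 23284 genes. Its 2 further columns, with values per library, were left out because their names match neither sample.

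Lists were summarised over members with a score other than 0, with a threshold of 0.5 in size. Counts and medians stand beside those of all genes with a score other than 0. No test was run. Members and lists were chosen with earlier results of these data known. Named genes were the 8 members and up to 4 genes per side of each other list, taken by size. A few genes of these lists are not reported here and enter no count, median or figure. Srebf1, Fdps, Tm7sf2, Csf1r, Ly6c2 and the genes that overlap a member are outside that rule. Those with a value were chosen once it had been seen. The order of the 19 enzymes comes from textbook knowledge. Symbols were matched to RefSeq genes of GRCm38.p6, the assembly of mm10, with 1 older symbol used, and overlaps came from GENCODE. Motifs were searched in RefSeq promoter windows with functions tested on simulated data. Python 3.11.15, NumPy 2.4.6, pandas 2.3.3 and Matplotlib 3.10.9 were used.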

Additional observations from a re-analysis of the deposited data

How the results depend on the processing

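No paired analysis was possible because the values used compare a single pair of libraries. Alternatives that need values per library (log ratios, pseudocounts, a minimum count) were not run. Shifting the zero point and dropping the last base of the sterol element were chosen after seeing the data. At a threshold of 0.25 in place of 0.5, the members on the positive side went from 1 to 4, and at 1 to 0. The negative side held 0 throughout. Of genes other than 0, 14.1% reached 0.25 and 5.39% reached 0.5, and 6.66% and 1.41% reached -0.25 and -0.5. The share of genes at 1 was not computed. With values under 0.1 in size left out, 4 members were positive and 0 negative, and 57.7% of all genes so filtered were positive. Over all 23284 genes, those at 0 included, 40.4% were positive, 3.77% reached 0.5 and 0.988% reached -0.5. With the zero point at 0.005, the median of genes other than 0, 2 members were negative, since Insig1 turned to -0.00078. Sqle went from 0.0058 to 0.00065. That zero point places equal numbers of genes other than 0 on either side by construction. The median of the members, 0.14, went from 0.033 to 0.25 as each member was left out in turn: 0.033 without any of Idi1, Srebf2, Lss and Cyp51, and 0.25 without any of the others. The mean was 0.17. Means in place of medians were 0.11 against 0.09 for the other enzymes, -0.11 against -0.04 for the SREBP regulators, 0.33 against 0.20 for fatty acid synthesis and -0.26 against -0.41 for efflux and storage, with no change of sign. With the shorter or the relaxed sterol element, 2 promoter windows matched in place of 1. The depth behind each score was not analysed, since the columns with values per library were left out. With 1 library per population, the size of the error on any of these values cannot be given.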
